A study of Mus musculus with 8 samples.

Results

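The 10 genes described here encode the contractile apparatus of smooth muscle, and were measured by RNA sequencing in kidneys of mouse embryos at E13.5, a stage at which the kidney has begun to branch and form nephrons. They were chosen by name (Acta2, Tagln, Myh11, Cnn1, Mylk, Tpm1, Tpm2, Myl9, Actg2 and Lmod1), and all 10 were among the 23337 genes of the deposited table. The mutant group held 4 libraries of Foxd1Cre;Smo(flox/-) kidneys, in which Cre recombinase made in renal stromal progenitors removes the floxed copy of Smo and the other copy is null in every cell. The control group held 4 libraries of Smo(flox/+) kidneys, without Cre and with a floxed and an intact Smo copy. Both groups came from crosses of Foxd1Cre;Smo(+/-) with Smo(flox/flox) mice on a mixed C57BL/6 background. Smo encodes Smoothened, the membrane protein that carries the hedgehog signal into the cell, and the comparison addressed which transcripts differ when the stromal lineage loses it. Mutants differ from controls by the Cre allele and the null allele as well as by the deletion. Whether the samples came from separate embryos or litters is not stated in the labels, and the p-values below therefore reflect the spread among these 8 samples alone.

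Smooth muscle shortens when myosin heads pull on actin filaments. Calcium-bound calmodulin activates myosin light chain kinase, which phosphorylates the regulatory light chain and thereby starts the cycle, while tropomyosin, calponin and related proteins sit along the thin filament. Serum response factor, with its co-activators myocardin and the myocardin-related factors, drives many of these genes through a DNA element called the CArG box. In the embryonic kidney such cells form around the ureter, which is surrounded by mesenchyme responsive to hedgehog ligand, and around vessels, where the Foxd1 lineage contributes mural cells. Several of the 10 genes are also transcribed outside smooth muscle, Tpm1, Tpm2, Myl9 and Mylk in many cell types and Acta2 and Tagln in developing skeletal muscle.

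Promoter windows, the 250 bases before 1 start of each gene in RefSeq GRCm38.p6, were at hand for 7 members, and 2 of them held CArG boxes. The element has a pair of C bases, a core of 6 bases that are A or T, and a pair of G bases, and reads the same way on both strands as a pattern. Boxes with at most 1 G or C in the core were counted. Of 32536 windows searched, 8.59% held at least 1 such box, 1.48% held a box with a core of only A and T, and 0.661% held at least 2 boxes of either kind. Acta2 and Myl9 each had 2 boxes. They are shown because they match the element bound by the best known regulators of the group, and a match describes letters, not a bound site. The capitals mark the box, with 10 bases on each side, 5′ to 3′ on the gene's strand. Positions count from the start that the window belongs to, which for Acta2 is base 34255373, 212 bases inside the RefSeq gene, and for Myl9 is base 156775464, 56 bases inside it. Both Acta2 stretches therefore lie downstream of the outermost annotated start of the gene.
Acta2, chr19:34255438-34255467, minus strand, box beginning 84 bases before the start: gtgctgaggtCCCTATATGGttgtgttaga
Acta2, chr19:34255388-34255417, minus strand, box beginning 34 bases before the start: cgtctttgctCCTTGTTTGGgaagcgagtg
Myl9, chr2:156775293-156775322, plus strand, box beginning 161 bases before the start: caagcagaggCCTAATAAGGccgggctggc
Myl9, chr2:156775355-156775384, plus strand, box beginning 99 bases before the start: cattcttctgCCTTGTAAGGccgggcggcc
Only the Myl9 box at 161 bases had a core free of G and C. The windows of Cnn1, Lmod1, Mylk, Tpm1 and Tpm2 held no box. The start behind the Mylk window lies 39751 bases inside the RefSeq gene, that of Tpm1 459, that of Cnn1 32 and that of Tpm2 29, while that of Lmod1 is the outermost one. The sequence GACCACCCA, a binding motif of the Gli factors, was in none of the 7 windows on either strand and in 0.218% of all windows.

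Libraries held 10288191 to 13494079 reads in genes. Smo stood at 509 to 553 normalised reads in mutants and at 2152 to 2294 in controls, so each library matched its label. Libraries also differed in transcripts of skeletal muscle and liver genes, and the source of those reads was not tested. The summed level of 17 skeletal muscle genes was 395, 2834, 286 and 473 normalised reads in mutants 1 to 4, and 948, 4871, 527 and 306 in controls 1 to 4. Alb, a liver transcript, was at 259 in control 1 and at most 45.8 elsewhere. Y-linked Ddx3y was at 1389.7 in mutant 2, at 1518 in control 4 and at most at 1.70 in the other 6, so the first 2 libraries were male and the others female. Levels are read counts divided by a size factor per library, as deposited.

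Scaled to gene length, the 10 genes fell into 3 tiers of level that did not overlap in either group. The top tier was Tpm2, Tpm1 and Myl9, at 667 ± 61.9, 483 ± 18.3 and 405 ± 33.0 normalised reads per kb of exon in mutants, and at 612 ± 73.0, 584 ± 64.6 and 447 ± 13.0 in controls (SD, n = 4 each). Acta2, Tagln and Mylk formed the middle tier, at 65.0 ± 22.4, 57.4 ± 14.3 and 60.2 ± 4.04 per kb in mutants, and at 112 ± 73.1, 73.7 ± 18.1 and 70.4 ± 5.24 per kb in controls. Actg2, Lmod1, Myh11 and Cnn1, which include the most specific markers of mature smooth muscle, made up the lowest tier, at 2.83 ± 0.837, 2.65 ± 0.687, 1.84 ± 0.421 and 1.12 ± 0.632 per kb in mutants, and at 4.28 ± 2.03, 3.17 ± 1.46, 2.64 ± 0.466 and 2.47 ± 1.04 per kb in controls. Within the middle tier all neighbours overlapped in both groups. In the lowest tier neighbours overlapped too, although Actg2 and Cnn1 did not overlap in mutants. In the top tier Tpm1 and Myl9 did not overlap in either group, while Tpm2 and Tpm1 overlapped in controls and not in mutants. Lengths are the merged exons of all transcripts in GENCODE vM21, which understates the level per kb of genes with many isoforms such as Mylk and Tpm1.

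**Figure D1:**
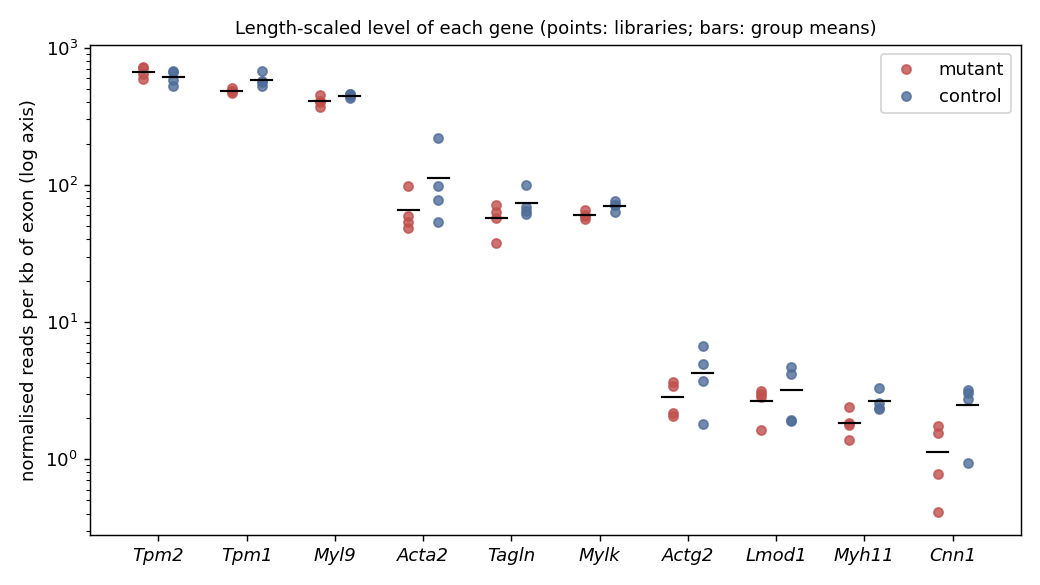
Normalised reads per kb of merged exon (log axis) for the 10 contractile genes, each point a library and each bar a group mean, with 4 mutant and 4 control libraries per gene. The genes form 3 tiers, from means of 667 per kb for Tpm2 in mutants down to 1.12 per kb for Cnn1 in mutants.

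None of the contractile genes passed the limma test between genotypes over the 8 libraries with genotype as the single term. A fit with the sample number as a replicate block, given in the last section, called 2 members, Mylk and Tpm1, and 1.69% of all tested genes. Of the 10, 8 had a mean of at least 10 normalised reads over the 8 libraries and entered the limma fit of 13692 genes, and Cnn1 and Actg2 did not. At a Benjamini-Hochberg adjusted p of 0.05 over all tested genes, 0 of the 8 passed, where 0.570% of all tested genes did. An unadjusted p under 0.05 was reached by Tpm1, Mylk and Myl9, all lower in mutants, where 8.70% of all tested genes reached it. edgeR called 0 members and 0.577% of all tested genes. DESeq2 called 1 member, Tpm1 (adjusted p = 0.00678), and 1.56% of all tested genes. Log2 fold changes (mutant over control, computed on normalised count + 1) were negative for 7 of the 8 and for 48.1% of all tested genes, and their median was -0.25, beside 0.0037 for all tested genes. Groups did not overlap for 1 of the 8, Tpm1, where 5.31% of all tested genes had groups that did not overlap. The RNA came from whole kidneys, so fewer cells of a type and less RNA per cell cannot be told apart.

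**Figure D2:**
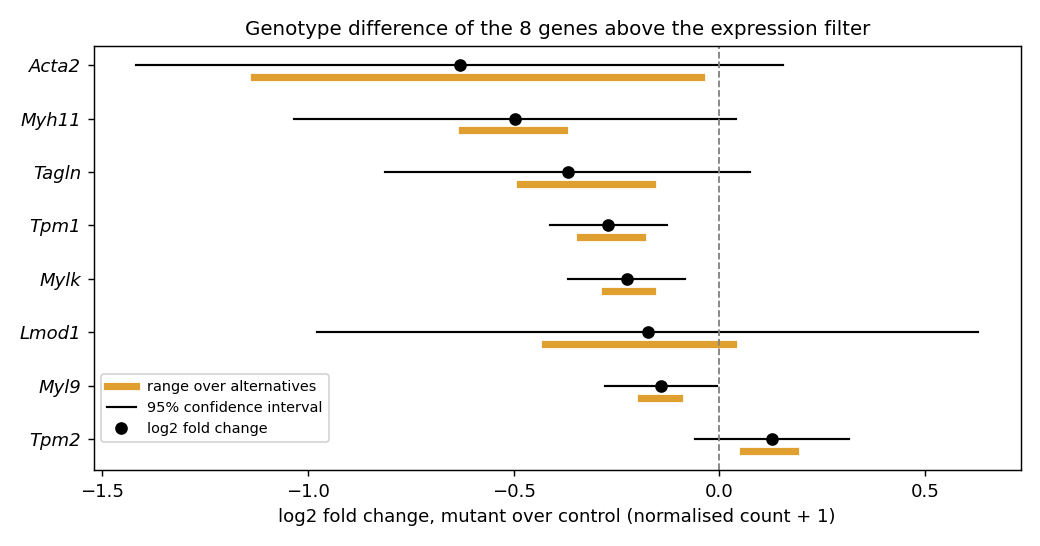
Log2 fold change, mutant over control, of the 8 tested contractile genes (points), with the limma 95% confidence interval (thin lines) and the range of the estimate over the alternative settings (thick lines). Tpm1, Mylk and Myl9 had intervals below 0 and none of the 8 passed after adjustment over all genes; the estimate of Acta2 ranged from -1.13 to -0.04.

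Acta2 encodes smooth muscle alpha actin (chromosome 19, 34241090 to 34255590, minus strand, in GRCm38 coordinates of GENCODE vM21 here and below), the earliest of these proteins in most smooth muscle. Its levels in normalised reads were 118, 215, 106 and 131 in mutants 1 to 4, and 215, 479, 171 and 118 in controls 1 to 4. The groups overlapped, with control 4 at the level of the lower mutants and control 2 far above every other library. Acta2 averaged 143 ± 49.3 in mutants and 245 ± 160.5 in controls, with a log2 fold change of -0.63 (95% confidence interval -1.42 to 0.15, limma adjusted p = 0.709). The interval holds both no difference and a fall by more than 1 on the log2 scale. Without control 2 the log2 fold change was -0.24 (adjusted p = 0.93), and without controls 1 and 2 it was -0.04 (adjusted p = 0.977). Without control 4 and mutant 2, the male libraries, it was -1.13 (adjusted p = 0.143). Within its group Acta2 varied more than 98.2% of all tested genes did, with a pooled SD of 0.68 on the log2 scale, where the median gene had 0.11.

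The order of the libraries by Acta2 was the order by summed skeletal muscle genes, except that mutant 2 and control 1, at 215.1 and 215.2 normalised reads of Acta2, changed places. Mutant 3 and control 4 were lowest in both and control 2 was highest in both. All 16 tested skeletal muscle genes had negative log2 fold changes, with a median of -0.60, and none was called (smallest limma adjusted p = 0.807, with 0 at an unadjusted p under 0.05, 0 called by edgeR and 0 by DESeq2). With mutant 2 and control 2 left out, the libraries richest in these transcripts, the log2 fold change of Acta2 was -0.46. Its limma unadjusted p was 0.046, where all 8 libraries gave 0.105. The adjusted p was 0.812, in a fit that called 2 of 13692 genes. Beyond that, the part of skeletal muscle RNA in the difference of Acta2 was not tested.

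**Figure D3:**
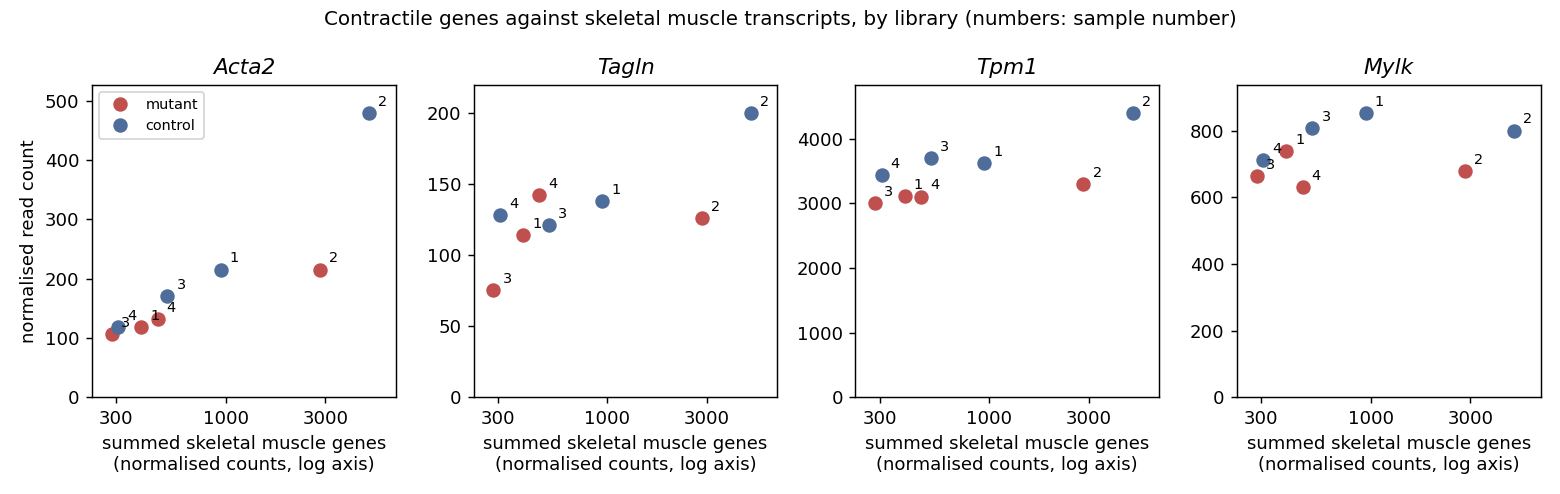
Normalised reads of Acta2, Tagln, Tpm1 and Mylk against the summed normalised reads of 17 skeletal muscle genes (log axis), one point per library, labelled by sample number. Control 2, with 4871 skeletal muscle reads, was the highest library for Acta2, Tagln and Tpm1 and not for Mylk.

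Actg2, the gamma actin of enteric and urinary tract smooth muscle (chromosome 6, 83512905 to 83536265, minus strand), was near the limit of detection. Its levels were 5.73, 5.32, 3.36 and 3.22 normalised reads in mutants and 7.66, 10.3, 5.81 and 2.82 in controls, from 3 to 10 reads per library. Control 4 was the lowest library and the other controls lay above all mutants. With no filter on low genes its log2 fold change was -0.43 (95% confidence interval -1.26 to 0.41, limma adjusted p = 0.89). The actins are close in sequence, yet only 0.352% of the 50-base stretches of the longest Acta2 transcript, and 0 of those of Actg2, recurred exactly in a transcript of another gene.

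Myh11 encodes the heavy chain of smooth muscle myosin (chromosome 16, 14194535 to 14291372, minus strand), a protein confined to smooth muscle. Its levels were 10.5, 13.8, 13.4 and 18.3 normalised reads in mutants and 19.6, 17.6, 25.2 and 17.9 in controls. Mutant 4 lay above controls 2 and 4, and the other 3 mutants lay below every control. The means were 14.0 ± 3.20 in mutants and 20.05 ± 3.54 in controls, with a log2 fold change of -0.50 (95% confidence interval -1.03 to 0.04, limma adjusted p = 0.626). Unlike Acta2, Myh11 was not highest in control 2, and without controls 1 and 2 its log2 fold change was -0.59 (adjusted p = 0.647). These values rest on 11 to 26 reads per library.

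Myl9, the regulatory light chain that the kinase phosphorylates (chromosome 2, 156775420 to 156781658, plus strand), was at 463, 473, 428 and 521 normalised reads in mutants and at 529.9, 532, 513 and 500.2 in controls. Mutant 4 again lay within the controls, and the other 3 mutants lay below all of them. Myl9 averaged 471 ± 38.3 in mutants and 519 ± 15.1 in controls, 90.8% of the control level, with a log2 fold change of -0.14 (95% confidence interval -0.28 to -0.0067, limma adjusted p = 0.542). It was the least variable member among controls, with a coefficient of variation of 2.91%, where Acta2 had 65.4%. The windows of both genes, shown above, held 2 boxes each.

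Mylk encodes myosin light chain kinase (chromosome 16, 34745210 to 35002420, plus strand), and the gene also gives rise to a long non-muscle kinase and to telokin, which counts per gene do not separate. Mylk stood at 739, 679, 663 and 630.4 normalised reads in mutants and at 852, 800.1, 809 and 712 in controls. The overlap was narrow, since only control 4 lay below the highest mutant. The means were 678 ± 45.5 in mutants and 793 ± 59.0 in controls, 85.5% of the control level, with a log2 fold change of -0.23 (SE 0.064, 95% confidence interval -0.37 to -0.08, limma adjusted p = 0.21). Without control 4 it passed (log2 fold change -0.28, adjusted p = 0.0437). In the authors' deposited table its adjusted p was 0.196. Exons of Mylk overlap those of the antisense gene E130310I04Rik over 4.87% of their length, and that gene averaged 3.16 normalised reads in mutants and 3.09 in controls.

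Tpm1, a tropomyosin that winds along actin filaments in muscle and non-muscle cells (chromosome 9, 67022590 to 67049406, minus strand), was the member that best separated the genotypes. Its levels were 3114, 3292, 3006 and 3105 normalised reads in mutants and 3621, 4392, 3702 and 3434 in controls. Every mutant lay below every control, and control 2 was the highest library as it was for Acta2. Tpm1 averaged 3129 ± 119 in mutants and 3787 ± 419 in controls, 82.6% of the control level, with a log2 fold change of -0.27 (SE 0.065, 95% confidence interval -0.41 to -0.13, limma adjusted p = 0.122, lower in 4 of 4 mutants). It ranked 171 of 13692 genes by p. Without control 4 the adjusted p was 0.032 (log2 fold change -0.31), and without control 4 and mutant 2 it was 0.0393 (log2 fold change -0.34). With mutant 2 and control 2 both left out the log2 fold change was -0.22 (adjusted p = 0.144), and without control 2 alone it was -0.20 (adjusted p = 0.124). The authors' deposited table gave an adjusted p of 0.263.

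Tpm2, the beta tropomyosin of skeletal and smooth muscle (chromosome 4, 43514711 to 43523765, minus strand), was the only tested member with a positive fold change. It stood at 1725, 2104, 2075 and 1863 normalised reads in mutants and at 1530.2, 1976, 1679 and 1935 in controls. The groups overlapped widely, at means of 1942 ± 180.1 in mutants and 1780.1 ± 212 in controls (log2 fold change 0.13, 95% confidence interval -0.06 to 0.32, limma adjusted p = 0.78). Without control 1 the log2 fold change was 0.058 (adjusted p = 0.913). Because both tropomyosins are read from the same library, their ratio does not depend on the scaling. Tpm2 over Tpm1, in normalised reads, was 0.554, 0.639, 0.69 and 0.60 in mutants and 0.423, 0.45, 0.454 and 0.564 in controls. Control 4 alone among controls exceeded a mutant, mutant 1. The ratio averaged 0.621 ± 0.0579 in mutants and 0.472 ± 0.0623 in controls, and was computed after the values of both genes were seen, so no test is given.

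**Figure D4:**
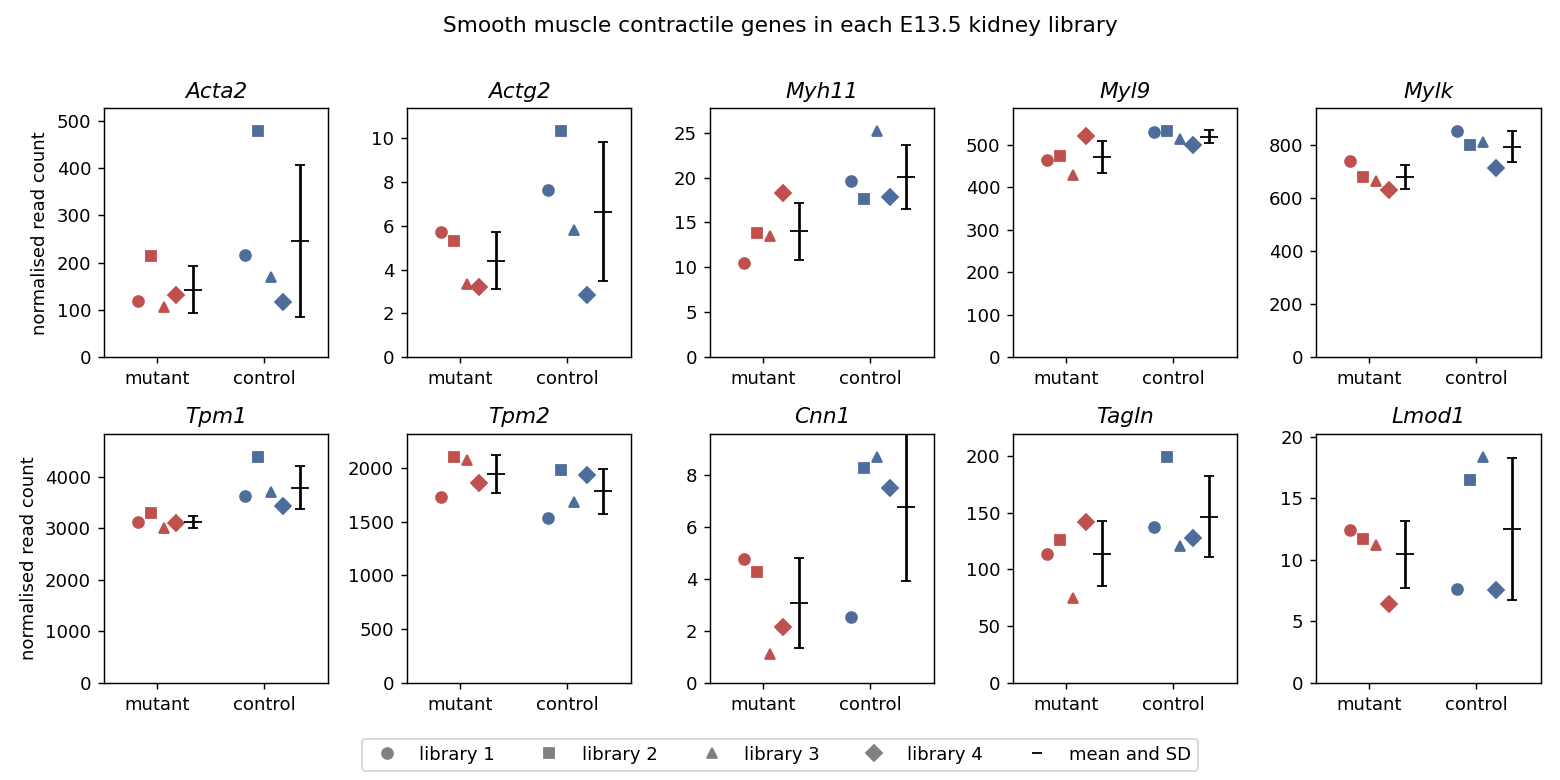
Normalised reads of each contractile gene in the 4 mutant libraries (left in each panel) and the 4 control libraries (right), with marker shape giving the sample number and black bars the mean and SD. Tpm1 is the gene whose groups do not overlap, with mutants at 3006 to 3292 and controls at 3434 to 4392.

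For the remaining thin filament genes, Tagln, Cnn1 and Lmod1, the confidence intervals of the difference included 0. Tagln encodes transgelin, an actin-binding protein of early smooth muscle (chromosome 9, 45929619 to 45936058, minus strand). Its levels were 114, 126, 75.05 and 142 normalised reads in mutants and 138, 199.5, 121 and 128 in controls. Mutant 3 was the lowest and control 2 the highest, and mutants 2 and 4 lay within the controls. The means were 114 ± 28.4 in mutants and 147 ± 36.0 in controls (log2 fold change -0.37, 95% confidence interval -0.81 to 0.08, limma adjusted p = 0.697). Without control 2 the log2 fold change was -0.21 and without mutant 3 it was -0.18 (adjusted p = 0.917 and 0.933). Exons of the antisense gene Gm48529 cover 62.4% of the Tagln exons and those of Pcsk7, on the opposite strand, cover 5.43%. Gm48529 is not among the genes of the deposited table, and Pcsk7 is. Pcsk7 averaged 287 ± 28.8 normalised reads in mutants and 264 ± 14.7 in controls. The labels do not state how reads in shared stretches were counted, so the Tagln level is uncertain to that extent.

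Cnn1, the smooth muscle calponin (chromosome 9, 22099216 to 22109630, plus strand), had 4.77, 4.26, 1.12 and 2.15 normalised reads in mutants and 2.55, 8.27, 8.72 and 7.52 in controls. Control 1 lay among the mutants and the other 3 controls lay above all of them. These are 1 to 9 reads per library, and with no filter the log2 fold change was -0.94 (95% confidence interval -1.90 to 0.02, limma adjusted p = 0.655). Lmod1, leiomodin 1, which nucleates actin filaments in smooth muscle (chromosome 1, 135324807 to 135368065, plus strand), had 12.4, 11.7, 11.2 and 6.44 normalised reads in mutants and 7.66, 16.5, 18.4 and 7.52 in controls. Its groups overlapped, since controls 1 and 4 lay below 3 of the 4 mutants. The log2 fold change was -0.17 (95% confidence interval -0.98 to 0.63, limma adjusted p = 0.948) and its sign turned without mutant 4 (0.020) or control 3 (0.034).

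Summed over the 10 genes, the level was 6306, 6924, 6383 and 6423 normalised reads in mutants 1 to 4 and 6924, 8432, 7053 and 6861 in controls 1 to 4. Mutant 2 and control 1 shared a level and control 4 lay below both, while control 2 stood apart at the top. The tropomyosins made up 76.9% of the total over all libraries. Without them the sum was 1468, 1528, 1302 and 1454 in mutants and 1773, 2063, 1672 and 1493 in controls, and control 4 lay among the mutants. Control 2 was the highest library for 5 of the 10 genes, control 3 for 3, control 1 for 1 and mutant 2 for 1. Mutant 3 was the lowest for 5.

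Genes outside the 10 with a related library profile were sought by correlation with the mean standardised log2 level of the 8 tested members over the 8 libraries. The 5 with the highest Pearson r were E530011L22Rik (r = 0.98), Sla (0.971), Cbfa2t3 (0.967), Kctd12 (0.956) and Kcnd3 (0.948), picked from 13684 genes and given as a description only. Kctd12, an auxiliary subunit of GABA-B receptors, stood at 1440.02, 1729, 1303 and 1809 normalised reads in mutants and at 2134, 3167, 2004 and 1914 in controls, again highest in control 2. Kcnd3, a potassium channel subunit, had 94.5, 98.0, 78.4 and 94.5 in mutants and 140.4, 166, 139 and 105 in controls. For both genes every mutant lay below every control, and neither passed (limma adjusted p = 0.193 and 0.123). The groups of E530011L22Rik, Sla and Cbfa2t3 overlapped, and 5.31% of all tested genes had groups that did not. The mean profile itself ran from -0.80 to -0.06 in mutants and from -0.13 to 1.19 in controls. Separation of the genotypes thus follows in part from how these genes were picked. After group means were subtracted the 5 most alike were Kremen2 (r = 0.966), Jph2 (0.963), Cpe (0.963), Olfm1 (0.961) and Rnf11 (0.961). Members themselves differed in how closely they followed the mean profile that they form, from r = 0.978 for Tpm1 and 0.898 for Acta2 to -0.151 for Tpm2.

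Among 21 other contractile and actin-linked genes, 20 were tested and none was called in either direction, where 0.570% of all tested genes were called. An unadjusted p under 0.05 was reached by 7 with lower and 1 with higher values in mutants, where 8.70% of all tested genes reached it. By edgeR and DESeq2 0 were called, and the median log2 fold change was -0.11. Groups did not overlap for 3 of the 20, all lower in mutants, where 5.31% of all tested genes had such groups. The smallest p belonged to Pdlim7, a PDZ and LIM protein of actin filaments (492 ± 12.8 in mutants and 573 ± 26.3 in controls, log2 fold change -0.22, limma adjusted p = 0.0972). Vcl, which encodes vinculin, averaged 1532 ± 23.7 in mutants and 1696 ± 66.2 in controls (log2 fold change -0.15, adjusted p = 0.136), and for both genes every mutant lay below every control. Csrp1, a LIM protein of smooth muscle, and the calponin Cnn2 followed, with log2 fold changes of -0.22 and -0.12 (adjusted p = 0.223 and 0.301). Csrp1 passed without control 4, and without control 4 and mutant 2. Des, the intermediate filament protein desmin, was at 862 ± 144 in mutants and 684 ± 84.1 in controls (log2 fold change 0.33, adjusted p = 0.378).

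Estimates for the tested genes that set the phosphorylation of myosin lay close to 0. Of 17 such genes (phosphatase subunits, calmodulins and others), 15 were tested, 0 passed by limma, edgeR or DESeq2, and 0 had an unadjusted p under 0.05, with log2 fold changes from -0.20 to 0.19 and a median of -0.0070. Prkg1, the cyclic GMP-dependent kinase that relaxes smooth muscle, averaged 97.5 ± 14.7 in mutants and 113 ± 24.1 in controls (adjusted p = 0.821). Mylk2 and Mylk3, also in the list, averaged under 10 normalised reads and were not tested. Mylk3 stood at 2.86, 3.19, 3.36 and 3.22 normalised reads in mutants and at 17.0, 6.20, 7.75 and 6.58 in controls. Every mutant lay below every control for Mylk3, at low read numbers. Mylk2 averaged 1.36 in mutants and 1.65 in controls, and its groups overlapped.

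Of 18 regulators of the smooth muscle programme, 17 were in the table, 16 were tested and none was called by limma or edgeR. DESeq2, which called 1.56% of all tested genes, called Klf4 and Meox2. An unadjusted limma p under 0.05 was reached by 2 with lower and 1 with higher values in mutants, where 8.70% of all tested genes reached it. Serum response factor itself, Srf, averaged 978 ± 23.6 in mutants and 975 ± 90.8 in controls (log2 fold change 0.0085, limma adjusted p = 0.983). Myocd, the gene of myocardin, was low, at 24.7 ± 6.36 in mutants and 29.3 ± 12.8 in controls (log2 fold change -0.17, adjusted p = 0.935). The myocardin-related factors Mkl1 and Mkl2 had log2 fold changes of 0.04 and -0.02 (adjusted p = 0.913 and 0.951). Tshz3 and Tbx18, transcription factors of the mesenchyme around the ureter, had values of -0.06 and 0.11 (adjusted p = 0.926 and 0.94). The smallest p values belonged to the homeobox gene Meox2, at 501 ± 35.7 in mutants and 369 ± 44.7 in controls (log2 fold change 0.44, adjusted p = 0.0521), and to Klf4, a zinc finger factor that represses smooth muscle genes, at 202 ± 46.1 in mutants and 299.6 ± 14.1 in controls (log2 fold change -0.59, adjusted p = 0.0869). Neither gene had overlapping groups. Meox2 passed with genes under a mean of 50 left out and without control 4, and Klf4 passed without mutant 4. Without control 4 and mutant 2 the calls were Meox2 and Tbx18.

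**Figure D5:**
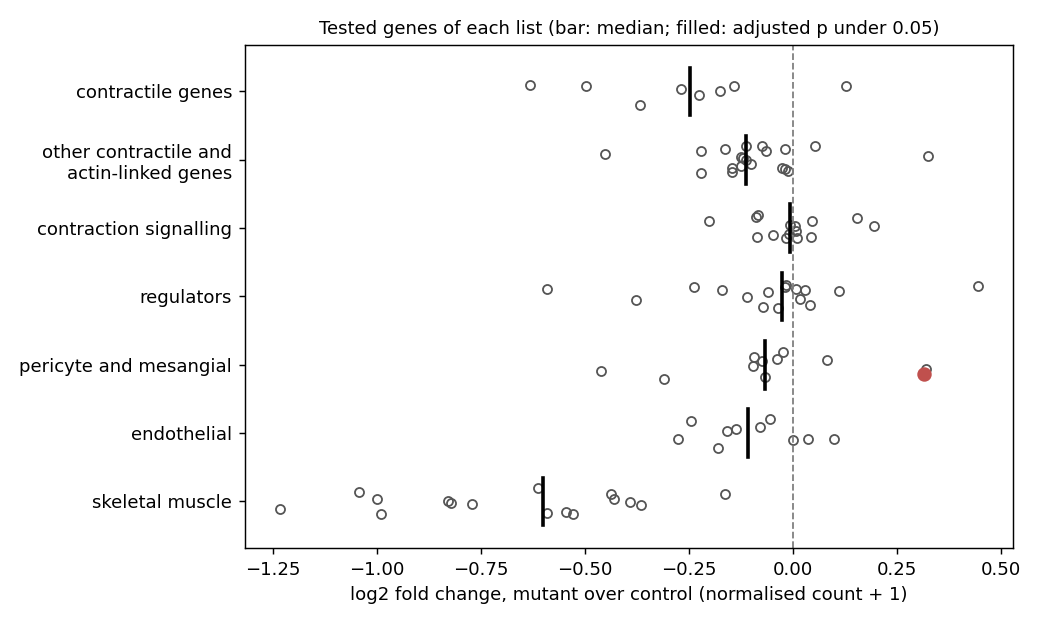
Log2 fold change, mutant over control, of each tested gene in the contractile genes and 6 other lists, with the median as a bar and genes at an adjusted p under 0.05 filled. Medians were -0.25 for the contractile genes, -0.11 for other contractile and actin-linked genes, -0.0070 for contraction signalling, -0.03 for regulators and -0.60 for skeletal muscle, and the filled gene is Itga8.

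Markers of cells that adjoin or share features with smooth muscle gave 1 call. In 11 tested pericyte and mesangial genes of 12 listed, Itga8, an integrin subunit of mesangial and nephron progenitor cells, rose (2049 ± 86.7 in mutants and 1648 ± 79.0 in controls, log2 fold change 0.31, limma adjusted p = 0.0126), and 0 passed in the lower direction. edgeR called Itga8 alone and DESeq2, which called 1.56% of all tested genes, called Itga8 and Anpep. The call of Itga8 ended when mutant 2, mutant 3 or both libraries numbered 2 were left out. Cspg4, the pericyte proteoglycan NG2, averaged 284 ± 23.4 in mutants and 353 ± 22.9 in controls, with no overlap (log2 fold change -0.31, adjusted p = 0.123). Anpep, a membrane aminopeptidase, averaged 302 ± 36.1 in mutants and 419 ± 75.5 in controls (log2 fold change -0.46, limma adjusted p = 0.192), and it passed by limma without control 4, and without control 4 and mutant 2. For the pericyte receptor gene Pdgfrb the difference was -0.10 on the log2 scale (adjusted p = 0.732). None of 10 endothelial genes was called (median -0.11, with 1, Tek, at an unadjusted p under 0.05, and 0 called by edgeR or DESeq2). Tek, an angiopoietin receptor, averaged 451 ± 52.3 in mutants and 546 ± 67.7 in controls (log2 fold change -0.28, adjusted p = 0.377). Of 7 heart muscle genes 3 were tested with 0 called by limma, edgeR or DESeq2, and their summed level was 55.4, 161.9, 41.4 and 52.6 normalised reads in mutants and 62.9, 215, 60.1 and 36.7 in controls, highest again in the libraries numbered 2. Of 7 liver genes 3 were tested and 0 were called by the same tools, with the highest sum in control 1 (737 normalised reads).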

How the data were processed

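RNA of 8 mouse kidney samples (500 ng each) was poly(A)-selected and made into Illumina TruSeq libraries, per the labels' protocols. The submitters' processing notes name TopHat2 2.0.12, HTSeq, DESeq2 1.4.5 and mm10 (GRCm38), without an annotation or a strand setting. The deposited signal values are counts of reads per gene that the authors divided by a size factor for each library. Dividing by the smallest value of a library gave whole reads for 100% of values, to within 0.01 read. The deposited table further holds the authors' fold change (a ratio of means), the log2 of that ratio, and p-values.

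Of 23337 genes, the 13692 whose values averaged 10 or more were compared on log2(value + 1) in limma 3.58.1 (R 4.3.3) with a mean-variance trend and genotype as the single term, two-sided, with Benjamini-Hochberg adjustment at 0.05. The members, lists and alternatives were chosen with earlier results of these data known. From each further list, called genes and otherwise up to 4 with the smallest p were eligible to be named. Myocd, Mkl1, Mkl2, Srf, Tshz3, Tbx18 and Des were named outside that rule, after their values were seen, for their role. Mylk2 and Mylk3 were also named outside it, as the genes of their list below the filter. The 5 genes most alike the members were taken by each of 2 measures. Recovered reads were also tested by the quasi-likelihood test of edgeR 4.0.16 with TMM scaling and by DESeq2 1.42.0. Exon lengths, overlaps and shared 50-base stretches came from GENCODE vM21. Promoters came from RefSeq GRCm38.p6. No 2 libraries of a group were alike within counting noise (chi-square of 2.89 to 10.98 for each degree of freedom), so all 8 were kept as samples. Read number limits the precision of low genes, and the tests use the spread between libraries.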

Additional observations from a re-analysis of the deposited data

Results flagged for a closer look

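Of 24 groups of 4 values (the 10 genes and their sums with and without the tropomyosins, in each genotype), 1 held a library far from the other 3, where chance gives about 1 in 20. The summed level of the 10 genes was 8432 normalised reads in control 2, against 6861 to 7053 in the other controls, the gap being 0.878 of the range. Control 2 also had the highest summed skeletal muscle level (4871 normalised reads), and the part of that tissue in the sum was not tested.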

How the results depend on the processing

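Over 20 alternatives (19 for Myh11 and Lmod1, which a filter of 50 removes), 7 of the 8 tested members kept their direction, and Lmod1 turned positive in 2 of the 8 fits that left out 1 library (0.020 and 0.034, in a range of -0.36 to 0.034). No member was called by limma with all 8 libraries and genotype as the single term; 1 was called with DESeq2 (Tpm1), 1 without control 4 and mutant 2 (Tpm1), a setting chosen after seeing the data, and 0 to 2 with 1 library left out, the 2 being Mylk and Tpm1 without control 4. The median log2 fold change of the members ranged from -0.34 to -0.20 with 1 library left out. It was -0.16 without controls 1 and 2 and -0.38 without control 4 and mutant 2, and the cause was not tested. Over all genes 78 were called, 214 with DESeq2, 29 without controls 1 and 2, 2 without both libraries numbered 2, 146 without control 4 and mutant 2, and 18 to 185 with 1 library left out. The summed level in mutants was 0.889 of that in controls and 0.871 to 0.937 with 1 library left out. Fits without libraries have fewer samples. The labels do not say whether a sample number pairs libraries, and the main fit left it out. Deviations of same-numbered libraries correlated by 0.325, 0.287, 0.294 and 0.0635. Mutants 1, 2 and 3 each correlated best with the control of the same number, and mutant 4 with control 3 (0.101). Pairs with different numbers correlated by -0.325 to 0.154. What the numbers share cannot be told from the labels. With the sample number as a replicate block 232 genes and 2 members were called, Mylk (adjusted p = 0.0331) and Tpm1 (adjusted p = 0.0126); in the other lists it called Des, Csrp1, Klf4, Meox2, Cspg4, Itga8, Tnni1 and Tek. Over all alternatives the adjusted p ranged from 0.00678 to 0.337 for Tpm1, from 0.0331 to 0.683 for Mylk and from 0.127 to 0.9998 for Acta2. Levels of Cnn1, Actg2, Lmod1 and Myh11 rest on 1 to 26 reads per library, which limits what can be seen there.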
